A study of Mus musculus with 11 samples.

Results

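The Nr4a family consists of 3 orphan nuclear receptor genes, Nr4a1, Nr4a2 and Nr4a3, and all 3 were found by symbol among the 24411 rows of the count table. The RNA came from sorted mesenchymal cells of mice that had part of the lung removed by surgery (pneumonectomy, PNX) or had a sham operation. The lungs came from C57BL6 mice, and the cells were sorted at day 7 or day 14 as negative for EpCAM, CD45 and CD31, which mark epithelial, blood and endothelial cells. No allele, transgene or drug is given for any group, and ages are not stated. The 11 libraries form 4 groups, namely day 7 sham (n = 3), day 7 PNX (n = 3), day 14 sham (n = 2) and day 14 PNX (n = 3). Whether replicates came from different animals is not in the labels. Libraries with and without counts on Y-linked genes stood side by side in both sham groups and in day 14 PNX. Each of these groups therefore held cells of more than a single animal. Whether every library came from its own animal is not known. The p-values here therefore reflect only how far the libraries of a group differ, possibly for technical reasons.

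The receptors of this family, also called Nur77 (Nr4a1), Nurr1 (Nr4a2) and Nor1 (Nr4a3), bind DNA as transcription factors without a known classical hormone. Their genes are immediate early genes: transcription starts within minutes of a stimulus through CREB, SRF or MEF2 and needs no new protein. Only transcripts were measured here, and the amount of receptor is not known. In fibroblasts Nr4a1 is known as a brake on transforming growth factor beta signalling, Nr4a2 is best known for its role in dopamine neurons, and Nr4a3 overlaps with Nr4a1 in blood and vascular cells. Immediate early genes are also known to respond to the handling of tissue and cells.

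The family was chosen by its symbols with results of these data in view, and the values that selected it are the counts of the day 7 libraries: Nr4a1 stood among the lower genes of smallest p for PNX against sham at day 7. That contrast, and every comparison that uses the day 7 libraries, is therefore given for the members as a description with no test. The contrast at day 14 compared other libraries and was tested. Its SE and p still drew on a spread estimated from all 11 libraries, those of day 7 among them. Without sham day 7 replicate 3 the SE of Nr4a1 at day 14 was 0.46 in place of 0.53. For the gene lists, counts of calls at day 7 are descriptions too.

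Total counts ran from 2539628 to 9008592 per library, and 16011 genes were tested. All 9 mesenchymal markers, Col1a1, Pdgfra and Tcf21 among them, passed the filter on low counts and summed to between 9381 and 27350 CPM (read counts scaled to library size with TMM factors). At day 7 the sums overlapped, at 16780 to 27350 CPM in sham and 16860 to 23460 CPM in PNX. At day 14 they did not, at 9381 to 16540 CPM in sham and 19780 to 25980 CPM in PNX. The part of this difference in the levels of the members was not tested. The gate did not leave the libraries free of other transcripts: 18 leukocyte markers summed to 199.7 to 2337 CPM, 9 endothelial markers to 87.1 to 1083 CPM, 10 epithelial markers to 176 to 17280 CPM and 5 erythroid markers to 253.5 to 79880 CPM, and no marker of these lists was at 0 throughout any group. Olfactory and vomeronasal receptor genes, which these cells are not known to use, took 89.9 to 1606 CPM of total counts, with the highest shares in 3 libraries: replicate 2 of both day 7 groups and replicate 1 of the day 14 sham group. In bulk samples, fewer cells of a type and less RNA per cell cannot be told apart.

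In mm10 coordinates and the GENCODE M21 annotation, Nr4a1 lies on chromosome 15 (101254269 to 101274795, plus strand), Nr4a2 on chromosome 2 (57106830 to 57124003, minus strand) and Nr4a3 on chromosome 4 (48045153 to 48086447, plus strand). No other annotated gene overlaps any of the 3. The 250 bases before each RefSeq start (GRCm38.p6) are shown because the short core of a known induction element is found in all of them. The levels of the 3 genes differed in order between groups. Capitals mark TGACG or its reverse complement CGTCA, the core of the cAMP response element to which CREB binds. The sequences run 5′ to 3′ on the strand of the gene, at chr15:101266596-101266845 (plus) for Nr4a1, chr2:57124004-57124253 (minus) for Nr4a2 and chr4:48045055-48045304 (plus) for Nr4a3.
Nr4a1: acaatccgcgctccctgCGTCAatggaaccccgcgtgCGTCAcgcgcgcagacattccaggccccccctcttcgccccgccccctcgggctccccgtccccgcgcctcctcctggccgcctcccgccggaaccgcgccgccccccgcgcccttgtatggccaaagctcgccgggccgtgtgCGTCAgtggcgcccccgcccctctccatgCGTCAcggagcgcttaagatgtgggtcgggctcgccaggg
Nr4a2: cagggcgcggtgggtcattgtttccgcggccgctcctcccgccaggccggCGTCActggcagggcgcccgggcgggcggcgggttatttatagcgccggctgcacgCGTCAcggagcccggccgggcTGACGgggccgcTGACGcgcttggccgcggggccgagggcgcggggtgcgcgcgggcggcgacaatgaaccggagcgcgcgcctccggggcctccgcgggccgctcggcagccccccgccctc
Nr4a3: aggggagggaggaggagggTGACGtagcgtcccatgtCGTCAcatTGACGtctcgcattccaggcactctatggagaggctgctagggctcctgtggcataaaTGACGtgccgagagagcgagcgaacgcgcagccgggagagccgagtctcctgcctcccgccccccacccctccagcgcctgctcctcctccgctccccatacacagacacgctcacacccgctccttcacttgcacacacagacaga
Each window holds 4 such cores on either strand. They begin 233, 213, 69 and 40 bases before the start of Nr4a1, from 200 to 111 bases before that of Nr4a2, and 231, 213, 205 and 147 bases before that of Nr4a3. Over 32817 RefSeq windows of the same length, 17.7% hold at least 1 core and 0.689% hold 3 or more. These windows were not matched for G and C content, which is 74.4% for Nr4a1, 80.0% for Nr4a2 and 63.6% for Nr4a3. How common the core is among windows as rich in G and C was not counted. The full palindrome TGACGTCA, found in 1.55% of windows, has no match in the 3, nor has the monomer site of the family itself, AAAGGTCA on either strand, found in 1.34%. The CArG box of SRF has no exact match (1.47% of windows), and the MEF2 site has 1, in Nr4a2, at 167 bases before the start (2.92% of windows). These are matches of letters only.

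Nr4a1 was the most abundant member in every library. In sham at day 7 its level was 2255, 3593 and 8393 CPM in replicates 1, 2 and 3. The PNX libraries of that day held 669, 846 and 634 CPM. The lowest sham library of day 7 stood above the highest PNX library, and sham replicate 3 stood far above the other two. The group means were 4747 ± 3227 CPM (SD, n = 3) in sham and 716 ± 113 CPM (SD, n = 3) in PNX, and the fitted log2 fold change was -2.73 ± 0.51 (SE). Without sham day 7 replicate 3 it was -2.03 ± 0.46, still the same direction. The sham libraries of day 7 spread widely while the PNX libraries lay close together, with a ratio of highest to lowest of 3.72 against 1.33. Groups did not overlap, with PNX lower, for 9.57% of all genes tested at day 7, and with PNX higher for 9.95%.

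At day 14 the level of Nr4a1 was 594 and 1427 CPM in sham replicates 1 and 2. The PNX libraries held 844, 427 and 437 CPM. The groups overlapped, since sham replicate 1 lay below PNX replicate 1. For 8.28% of genes the PNX libraries all lay below sham at this day, and for 9.57% all above. The means were 1010.4 ± 589 CPM (SD, n = 2) and 569 ± 238 CPM (SD, n = 3). The log2 fold change of -0.83 ± 0.53 (SE) did not pass the threshold (edgeR's quasi-likelihood test with Benjamini-Hochberg correction, adjusted p = 0.795), and its 95% interval ran from -1.94 to 0.28. Leaving out sham day 14 replicate 2 gave 0.08 ± 0.60 and leaving out replicate 1 gave -1.34, so the direction rests on 1 library. At this day 1 gene was called higher (0.00625% of 16011) and 0 lower (0%) by edgeR, with 581 lower at an unadjusted p under 0.05 and 45 lower (0.283%) and 63 higher (0.396%) by DESeq2.

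Ordered by mean, Nr4a1 was highest in sham at day 7, followed by sham at day 14, PNX at day 7 and PNX at day 14. The sham libraries of day 7 did not overlap with any other group: the highest library outside it held 1427 CPM. The 3 PNX libraries of day 7 lay inside the range of sham at day 14, and PNX at day 14 overlapped with both. From day 7 to day 14 the fitted log2 difference was -2.23 ± 0.58 (SE) within sham, where 11.8% of genes did not overlap as lower and 12.5% as higher, and -0.33 ± 0.48 within PNX, where 9.08% and 9.02% did not. The sham difference was -1.53 with replicate 3 of day 7 left out and -3.18 with replicate 2 of day 14 left out. Whether the PNX difference itself changed between the days was not tested, because it uses the day 7 contrast.

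**Figure D1:**
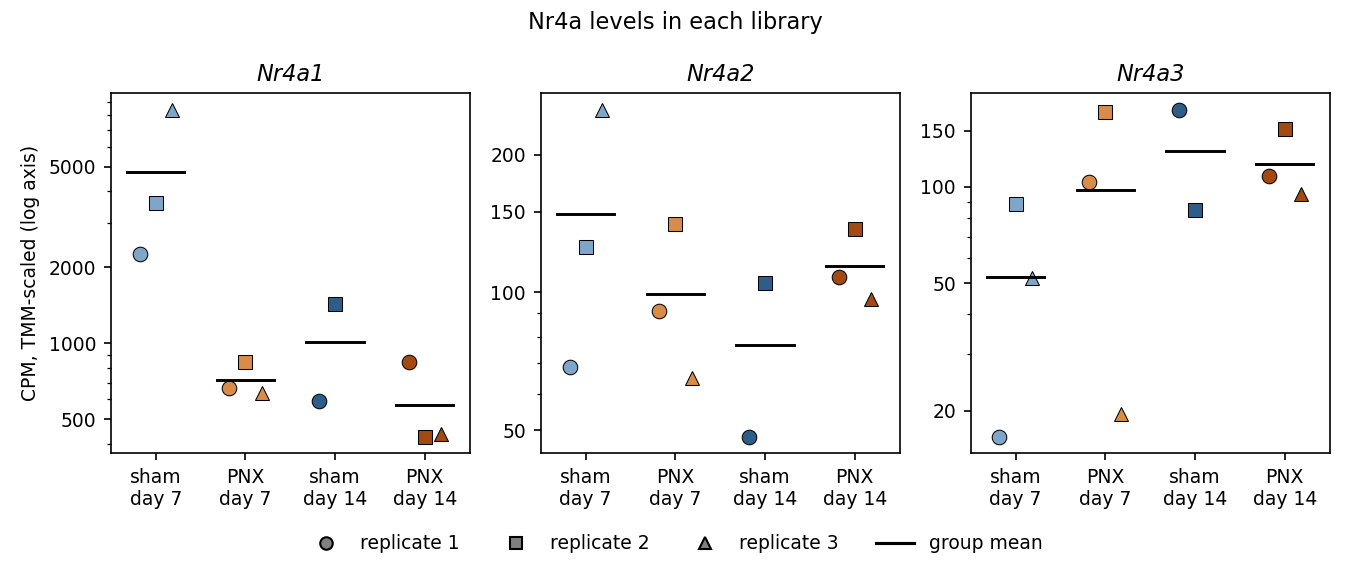
Levels of Nr4a1, Nr4a2 and Nr4a3 in each library, in TMM-scaled CPM on log axes, by group; each symbol is a library and each line a group mean. For Nr4a1 the 3 sham libraries of day 7 (2255 to 8393 CPM) lie above the other 8, while the groups of Nr4a2 overlap and sham at day 7 has the lowest mean of Nr4a3.

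Nr4a2 was expressed at a lower level than Nr4a1 and without that separation. In sham at day 7 it stood at 68.6, 126 and 250.4 CPM in replicates 1, 2 and 3. In the PNX group it stood at 91.3, 141 and 65.0 CPM. These groups overlapped, and 1 library, sham replicate 3, was above all others in the study. The log2 fold change at day 7 was -0.58 ± 0.44 (SE), and without that library it was 0.03. In sham at day 14 the level was 48.4 and 105 CPM. Levels of 108, 138 and 96.9 CPM were found in PNX at that day. Here PNX had the higher mean, 114 ± 21.1 CPM (SD, n = 3) against 76.7 ± 40.1 CPM (SD, n = 2), but sham replicate 2 lay within the PNX range. The log2 fold change was 0.57 ± 0.50 (SE; adjusted p = 0.837 by edgeR; 95% interval -0.47 to 1.61). Leaving out replicate 1 of sham gave 0.11, leaving out replicate 2 gave 1.39, and it was 0.15 without the 3 libraries of highest olfactory and vomeronasal share. By mean the order was sham day 7, PNX day 14, PNX day 7 and sham day 14, and every pair of neighbours overlapped. With CPM of total counts the middle pair changed places, at 103 CPM for PNX day 14 and 113 CPM for PNX day 7.

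Nr4a3 had its lowest mean where Nr4a1 had its highest. In sham at day 7 it stood at 16.6, 88.5 and 51.9 CPM in replicates 1, 2 and 3. After PNX it stood at 104, 171 and 19.5 CPM. The groups overlapped, and replicate 3 of PNX lay near replicate 1 of sham, both below all other libraries of the study. The log2 fold change at day 7 was 0.90 ± 0.70 (SE); leaving out replicate 2 of the PNX group gave 0.20 and leaving out that of the sham group gave 1.45. In sham at day 14 the level was 174 and 85.0 CPM. After PNX it was 108, 152 and 95.3 CPM at that day. All 3 PNX libraries lay between the 2 sham libraries. The log2 fold change was -0.13 ± 0.77 (SE; adjusted p = 0.978 by edgeR; 95% interval -1.82 to 1.56). It was 0.47 without sham day 14 replicate 1. By mean the order was sham day 14, PNX day 14, PNX day 7 and sham day 7, with overlap between every pair of neighbours. With CPM of total counts PNX day 7 (113.5 CPM) came before PNX day 14 (106 CPM). From day 7 to day 14 within PNX, the log2 difference was 0.21 ± 0.44 for Nr4a2 and 0.28 ± 0.69 for Nr4a3, and with total counts, which moved the median of all genes by -0.29, it was -0.13 and -0.10.

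The 3 libraries with the largest share of olfactory and vomeronasal counts were each the highest in Nr4a3 of their own group: 88.5 CPM in sham day 7 replicate 2, 171 CPM in PNX day 7 replicate 2 and 174 CPM in sham day 14 replicate 1. Their shares on those receptor genes were 635, 1195 and 1606 CPM of total counts. PNX at day 14 went the other way: its highest library in Nr4a3, replicate 2 (152 CPM), had the lowest share of that group. That share was 124 CPM of total counts, against 442 and 276 in replicates 1 and 3. Without these 3 libraries the log2 fold change of Nr4a3 was 0.82 ± 0.87 at day 7 and 0.51 ± 1.02 at day 14, where 1 sham library remains and is assumed to vary like the other groups. The part of this background in the level of Nr4a3 was not tested. For Nr4a1 this was so in 1 of the 3 groups, PNX at day 7. Without the same libraries the log2 fold change of Nr4a1 stood at -3.05 ± 0.60 at day 7 and -1.30 ± 0.60 at day 14.

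The spread within groups also set Nr4a3 apart. Its SD of log2 CPM within groups was 1.14, larger than that of 90.4% of the genes tested, against 0.69 for Nr4a1 and 0.67 for Nr4a2, and the median gene had 0.56. Reads were not scarce for any member: counts per library ran from 1768 to 57886 for Nr4a1, from 144 to 1727 for Nr4a2 and from 118 to 966 for Nr4a3. Over the 11 libraries Pearson's r of log2 CPM was 0.53 between Nr4a1 and Nr4a2, -0.36 between Nr4a1 and Nr4a3 and 0.20 between Nr4a2 and Nr4a3. After the group means were subtracted, these values were 0.82, 0.19 and 0.52. Libraries share depth and scaling across genes, so the coefficients are descriptions.

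Divided by exon length (3.51 kb for Nr4a1, 4.06 kb for Nr4a2 and 5.99 kb for Nr4a3), the levels of the members can be set beside each other. In sham at day 7 Nr4a1 averaged 1353 CPM per kb, Nr4a2 36.5 and Nr4a3 8.74. The same means in PNX at day 14 were 162, 28.2 and 19.8 CPM per kb. The family was thus almost wholly Nr4a1 in sham at day 7 and more mixed elsewhere. On this scale Nr4a1 made up 97.0, 95.7 and 97.1% of the family sum in the sham libraries of day 7. It made up 82.7, 79.2 and 90.4% in PNX at day 7, all below the 3 sham values. At day 14 the share was 80.5 and 91.0% in sham and 84.3, 67.2 and 75.8% in PNX, which overlapped. The ratio of Nr4a1 to Nr4a3 per kb was 69.3 to 276 in the day 7 sham libraries and 8.45 to 55.4 after PNX. The day 14 ratio was 5.82 and 28.6 in sham and 4.80 to 13.3 in PNX.

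**Figure D2:**
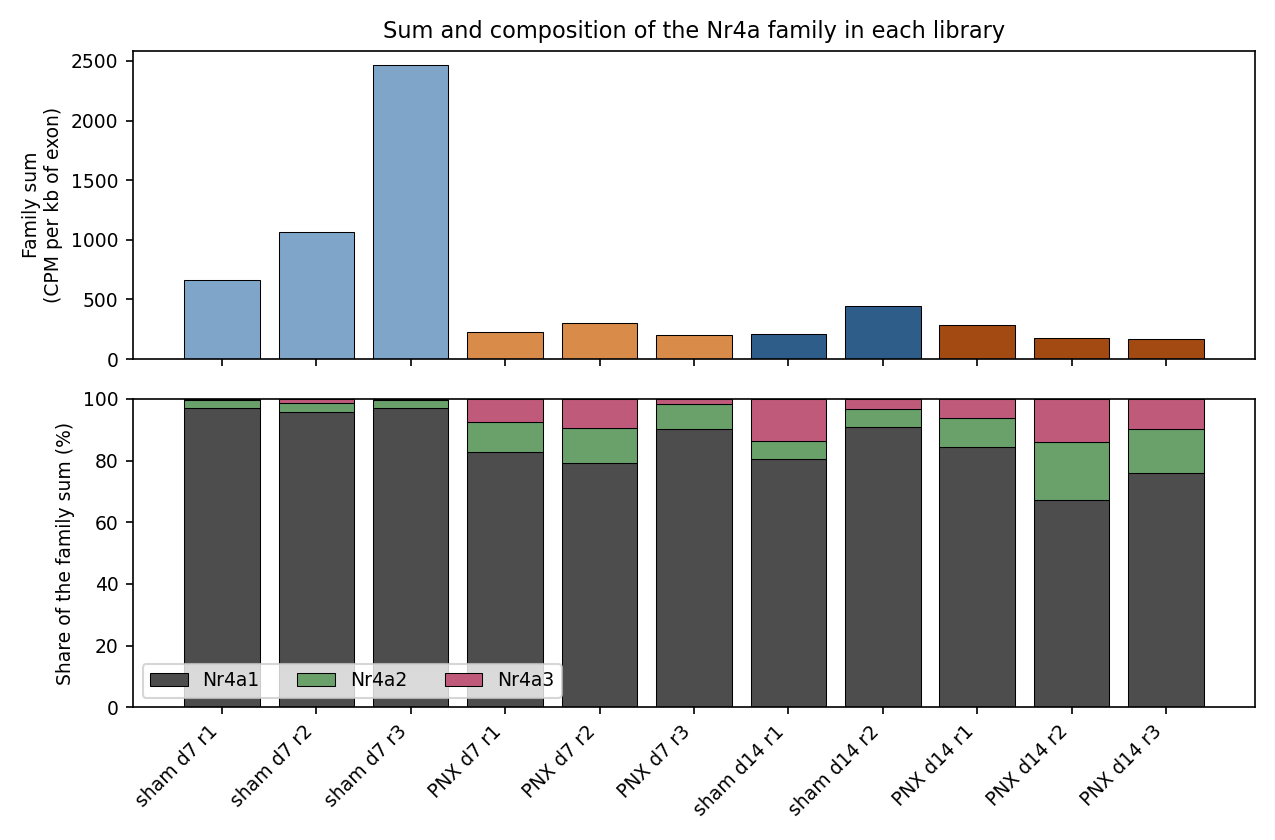
Family sum in CPM per kb of exon (top, bars from 0) and the share of each member in that sum in percent (bottom) for the 11 libraries, with d for day and r for replicate. Nr4a1 makes up 95.7 to 97.1% in the sham libraries of day 7 and 67.2 to 91.0% in the other 8.

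Among nuclear receptors, Nr4a1 had the highest level per kb in all 4 groups. Of 49 nuclear receptor genes in the table, 41 passed the filter. The next highest in sham at day 7 was Nr1d1, the clock repressor Rev-erb alpha, at 66.6 CPM per kb, and in PNX at day 7 it was again Nr1d1, at 32.1 against 204 for Nr4a1. Nr4a2 ranked at 3, 4, 7 and 4 in sham day 7, PNX day 7, sham day 14 and PNX day 14. Nr4a3 ranked at 13, 7, 5 and 6. Nr3c1, the glucocorticoid receptor, averaged 24.7 CPM per kb in sham at day 7 and 18.7 in PNX, below Nr4a2 in both. At day 14 it stood above Nr4a2 in both groups, at 20.3 against 18.9 CPM per kb in sham, and ranked at 3 in PNX, where Nr4a2 ranked at 4.

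**Figure D3:**
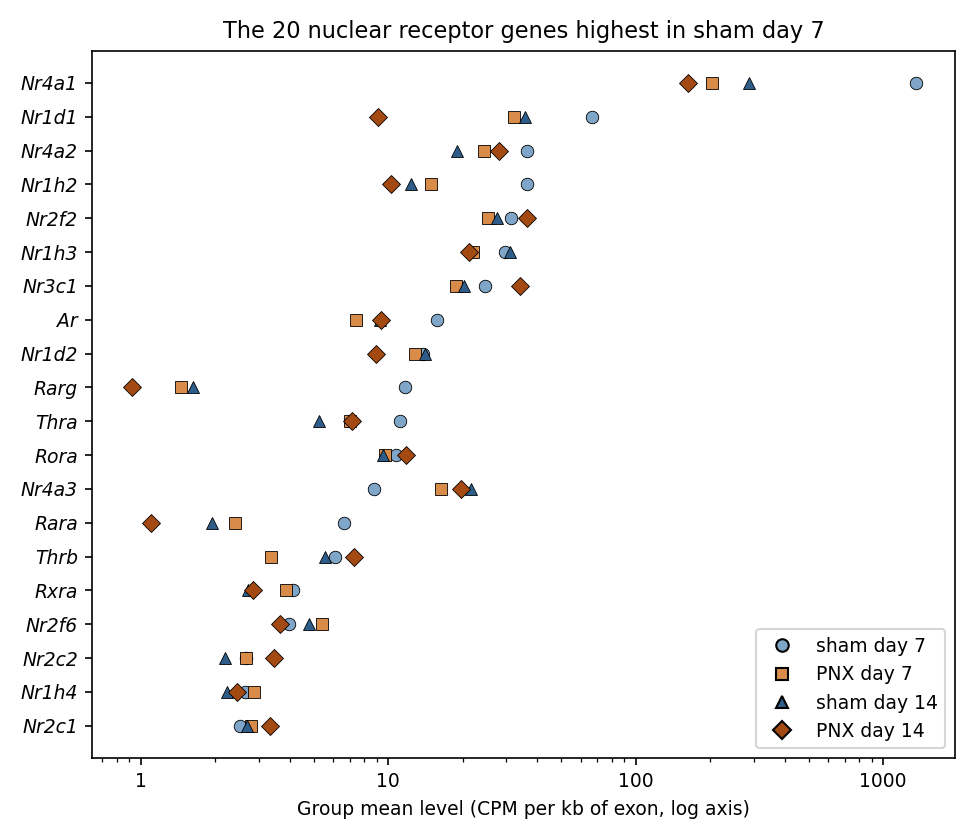
Group means in CPM per kb of exon (log axis) for the 20 nuclear receptor genes with the highest level in sham at day 7; each symbol is a group mean. Nr4a1 is to the right of the other receptors in each of the 4 groups, between 162 and 1353 CPM per kb, and Nr4a3 is the member with its lowest mean, 8.74 CPM per kb, in sham at day 7.

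Of the other 46 nuclear receptors 38 were tested, and 0 were called in either direction at day 7 or day 14 by edgeR. At day 7, where 6 of 16011 genes (0.0375%) were called higher and 0 (0%) lower, 4 of the 38 were lower and 0 higher at an unadjusted p under 0.05, beside 8.07% and 4.66% of all genes. DESeq2 called 1 lower, beside 2.44% of all genes. The receptor of smallest p was Rarg, a retinoic acid receptor. Rarg stood at 9.42, 53.7 and 87.0 CPM in sham at day 7. The PNX libraries held 5.61, 7.48 and 5.53 CPM. The groups did not overlap, and sham replicate 3 was the highest library here as for Nr4a1. Nr1h2, the oxysterol receptor LXR beta, was lower by -1.29 ± 0.41 in log2, at a mean of 36.3 CPM per kb in sham and 14.8 in PNX. At day 14, 0 were higher and 1 was lower at an unadjusted p under 0.05, namely Nr1d1, at 59.5 and 160 CPM in sham and 13.1, 37.5 and 33.3 CPM in PNX, with an adjusted p of 0.546 by edgeR.

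Of the retinoid X receptors, with which Nr4a1 and Nr4a2 can pair, Rxra had the highest level per kb in every group. Among the 41 nuclear receptors it ranked at 16, 14, 16 and 17 in sham day 7, PNX day 7, sham day 14 and PNX day 14. Rxra averaged 22.4 ± 5.58 CPM (SD, n = 3) in sham at day 7 and 21.0 ± 8.34 CPM in PNX, and its log2 fold change was -0.10 ± 0.37 at day 7 and 0.08 ± 0.42 at day 14. Rxrb and Rxrg stood at most at 12.4 and 6.38 CPM in any library. Of 13 genes for partners, coactivators and corepressors, all tested, 0 were called at either day by edgeR or DESeq2. At an unadjusted p under 0.05, 1 was higher and 0 lower at day 7, beside 4.66% and 8.07% of all genes, and 0 were in either direction at day 14. The medians of log2 fold change were -0.10 at day 7 and 0.08 at day 14, beside 0.03 and -0.07 over all genes. The PNX libraries all lay above sham at day 7 for 1 of the 13, beside 9.95% of all genes. This was Kdm1a, a histone demethylase of the CoREST corepressor complex. It stood at 15.9, 22.8 and 9.57 CPM in sham and 28.9, 37.7 and 24.5 CPM in PNX.

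Immediate early genes were listed next to the family because they share its mode of induction; the list was drawn up with earlier results of these data known. Of 36 members 35 were tested. At day 7 the list was split: 25 were lower after PNX and 10 higher, with a median log2 fold change of -0.67 beside 0.03 over all genes. By edgeR 0 were called in either direction, and 16 were lower and 1 higher at an unadjusted p under 0.05, where 8.07% and 4.66% of all genes were. DESeq2 called 11 lower and 0 higher, beside 2.44% and 0.954% of all genes. The groups did not overlap for 12 as lower and 1 as higher, beside 9.57% and 9.95% of all genes. Junb, an AP-1 subunit, stood at 1477, 7507 and 11390 CPM in sham and at 473, 614 and 533 CPM in PNX. Egr1, a zinc finger factor induced through SRF, stood at 2179, 3482 and 5383 CPM in sham and at 868, 876 and 983 CPM in PNX. Both had the pattern of Nr4a1, with all sham libraries above all PNX libraries and sham replicate 3 highest. Fos, the partner of Jun proteins in AP-1, was highest in another library: it stood at 7388, 4825 and 7095 CPM in sham and at 3145, 2628 and 4351 CPM in PNX. Without sham day 7 replicate 1, edgeR called 8 list members lower, among 386 genes called lower in all. It called 4 of 56 without sham day 14 replicate 1, 4 of 68 without sham day 14 replicate 2 and 1 of 2 without PNX day 14 replicate 1.

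At day 14 the list had 28 members lower and 7 higher, with a median of -0.48 beside -0.07 over all genes. By edgeR 0 were called, as by DESeq2, and 5 were lower and 1 higher at an unadjusted p under 0.05, beside 3.63% and 3.19% of all genes. Without sham day 14 replicate 2, 16 were lower and 19 higher, with a median of 0.05. That library also had the higher Nr4a1 level of the 2 sham libraries. Ppp1r15a, a phosphatase subunit of the stress response, stood at 198 and 582 CPM in sham and at 273, 154 and 131 CPM in PNX. Jund, an AP-1 subunit, stood at 769 and 122 CPM in sham and at 176, 137 and 143 CPM in PNX. In the first gene sham replicate 2 was the high library and in the second sham replicate 1, as in Nr4a1 and Nr4a3 respectively.

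**Figure D4:**
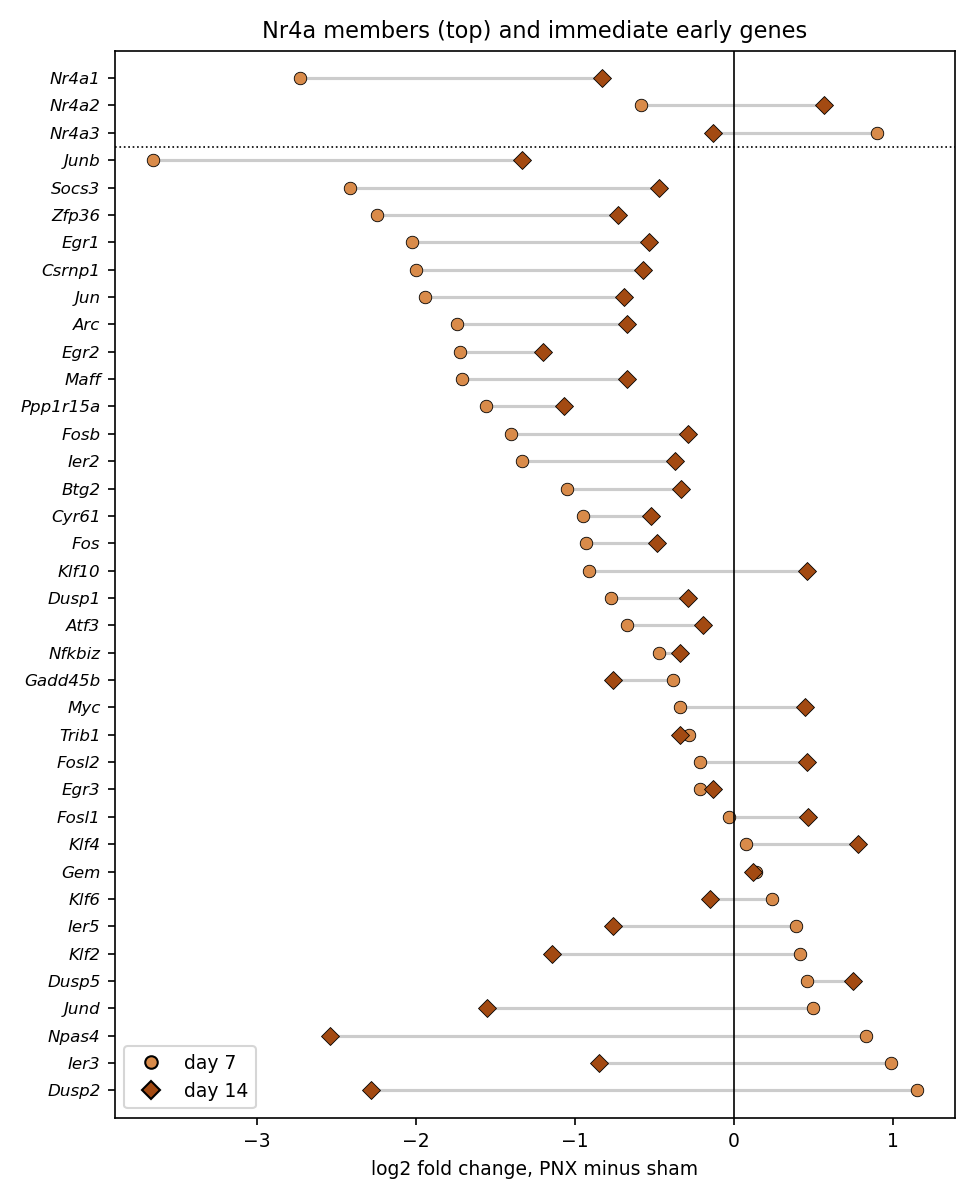
Log2 fold change of PNX against sham at day 7 (circles) and day 14 (diamonds) for the 3 Nr4a genes, at the top, and the 35 immediate early genes tested, ordered by day 7. At day 7 Nr4a1 (-2.73) stands with Junb and Socs3 at the low end and Nr4a3 (0.90) with Ier3 and Dusp2 at the high end; edgeR called no immediate early gene at either day, while DESeq2 called 11 lower at day 7.

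The members differed in which immediate early genes they resembled. Likeness was measured as Pearson's r of log2 CPM over the 11 libraries, among 12535 genes. For Nr4a1 the closest gene was Egr1 (r = 0.989), followed by Tmbim1 (0.984), Itm2c (0.980), Hp1bp3 (0.976) and Rab3d (0.976). For Nr4a2 the closest were Tgfbr2, a receptor for transforming growth factor beta (0.905), Nhsl2 (0.904), Crlf2 (0.894), Itga5, an integrin that binds fibronectin (0.887), and Pdgfrb (0.886). For Nr4a3 the closest were the immediate early genes Ier5 (0.897) and Egr3 (0.887), then Enho (0.876), Ccng2 (0.874) and Ipmk (0.874). Egr1 thus followed Nr4a1 and Egr3 followed Nr4a3. Egr1 had r = -0.42 with Nr4a3, and Egr3 had r = -0.13 with Nr4a1. After the group means were subtracted these values were 0.09 and 0.19, no longer negative. With Egr3 at 41.7 CPM in sham day 14 replicate 1 and 8.35 CPM in PNX day 7 replicate 3, its highest and lowest libraries were the highest and the second lowest of Nr4a3.

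Over the 35 immediate early genes the median r was 0.69 with Nr4a1, 0.38 with Nr4a2 and 0.12 with Nr4a3, beside -0.04, -0.02 and 0.01 over all genes. Of the 35, 19 had r above 0.5 with Nr4a1, 7 with Nr4a2 and 6 with Nr4a3. Sham at day 7 stands apart in Nr4a1, so the measure was repeated after subtracting the group means. The medians were then 0.57, 0.48 and 0.25, and 20, 15 and 12 genes had r above 0.5. Within groups the closest on this list were Egr2 (0.96) and Egr1 (0.95) to Nr4a1, Fosl2 (0.90) to Nr4a2, and Gadd45b (0.97) and Egr3 (0.95) to Nr4a3. Among all genes within groups the closest to Nr4a1 were Ehd2 (0.988), Lamb2 (0.983), Map3k7cl (0.976), Plbd2 (0.975) and Ndrg4 (0.969). The closest to Nr4a2 were Usp2 (0.987), Rcan1 (0.981), Ncapd2 (0.944), Zyg11b (0.940) and Cad (0.933). Rcan1 is a calcineurin regulator. The closest to Nr4a3 were Gadd45b (0.972), Stk40 (0.966), Ctif (0.956), Inpp5d (0.950) and Egr3 (0.950). Inpp5d is a phosphatase gene of blood cells, at 0.281 to 11.4 CPM here.

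**Figure D5:**
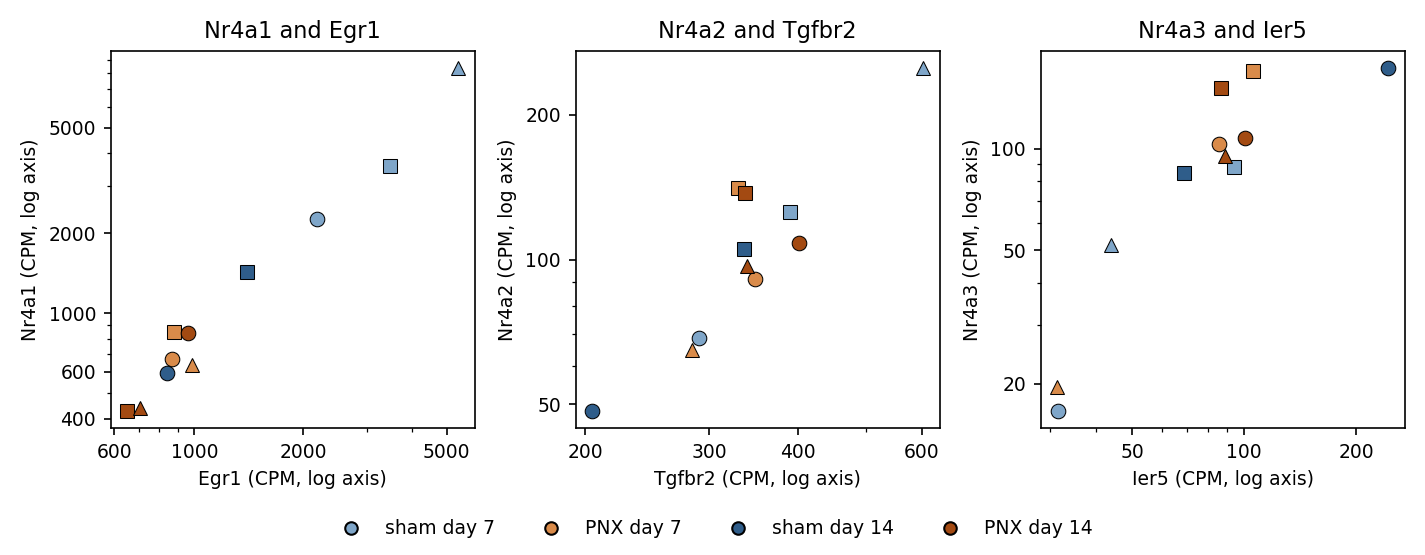
Level of each member against that of the gene most like it over the 11 libraries, in CPM on log axes; colours are groups, and circle, square and triangle are replicates 1, 2 and 3. Nr4a1 and Egr1 (r = 0.989) are both highest in the 3 sham libraries of day 7, Nr4a2 and Tgfbr2 (r = 0.905) are both highest in sham day 7 replicate 3 and lowest in sham day 14 replicate 1, and Nr4a3 with Ier5 (r = 0.897) is highest in sham day 14 replicate 1.

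Upstream of the family, genes of the CREB pathway showed no call. All 20 were tested and 0 were called at either day by edgeR or DESeq2. At an unadjusted p under 0.05, 3 of the 20 were lower and 0 higher at day 7, beside 8.07% and 4.66% of all genes, and 0 in either direction at day 14, beside 3.63% and 3.19%. The medians of log2 fold change were -0.20 at day 7 and -0.19 at day 14, beside 0.03 and -0.07 over all genes. Crtc2, a coactivator of CREB, stood at 6.61, 28.4 and 31.5 CPM in sham at day 7 and at 6.97, 9.97 and 3.98 CPM in PNX, with sham replicate 1 inside the PNX range. Crtc3, a second coactivator, was lower in all PNX libraries, at 44.1, 58.6 and 86.1 CPM in sham and 32.3, 30.7 and 27.2 CPM in PNX. It was the only 1 of the 20 to do so at day 7, beside 9.57% of all genes. Prkaca alone was higher in all PNX libraries, beside 9.95% of all genes. It stood at 16.6, 18.3 and 16.2 CPM in sham and at 24.5, 21.3 and 23.9 CPM in PNX. Crem and Sik1, which CREB itself induces, did not show the separation of Nr4a1: Crem stood at 20.8 to 32.3 CPM in sham at day 7 and at 31.8 to 38.8 CPM in PNX, and Sik1 at 31.3 to 59.7 and 25.7 to 53.2 CPM.

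Of 15 genes for SRF, its cofactors and the MEF2 and calcineurin input, 14 were tested and 0 were called at either day by edgeR or DESeq2. At day 7, 4 were lower and 1 higher at an unadjusted p under 0.05, beside 8.07% and 4.66% of all genes. The higher gene was Elk3, with a log2 fold change of 1.43 ± 0.47 (SE). Elk3 stood at 8.86, 17.4 and 5.66 CPM in sham and at 37.6, 35.7 and 12.2 CPM in PNX, with overlap. At day 14, 0 were in either direction, beside 3.63% and 3.19%. Mkl1, the SRF coactivator also named Mrtfa, stood at 6.61, 30.5 and 38.3 CPM in sham at day 7 and at 10.4, 9.97 and 6.04 CPM in PNX. Sham replicate 1 was again the low one, within the PNX range. Srf itself stood at 19.1, 61.6 and 26.4 CPM in sham and at 17.5, 28.2 and 14.1 CPM in PNX. Mef2a and Mef2c, the MEF2 genes with the highest levels, differed by -0.39 ± 0.35 and -0.13 ± 0.35 in log2 at day 7 and by 0.14 ± 0.39 and 0.45 ± 0.39 at day 14.

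Genes reported as targets of the family in other tissues, such as the steroid gene Star and the muscle genes Pygm and Slc2a4, numbered 18, of which 13 were tested. At day 7 edgeR called 1 higher, beside 0.0375% of all genes, and 0 lower. It was Spp1, the gene of osteopontin, which Nr4a2 is reported to activate in bone cells. Spp1 stood at 17.0, 13.3 and 6.38 CPM in sham at day 7 and at 216, 880.5 and 130 CPM in PNX with no overlap. Of the 13, 3 had all PNX libraries below sham at day 7 and 1, Spp1, had all above, beside 9.57% and 9.95% of all genes. At day 14 this held for 0 and 5, beside 8.28% and 9.57%. Pygm and Slc2a4 were lower in every PNX library of day 7, Pygm at 25.3, 38.7 and 30.7 CPM in sham and 18.0, 14.1 and 17.9 CPM in PNX. Slc2a4 stood the other way at day 14, at 1.68 and 2.07 CPM in sham and 4.29, 3.30 and 2.70 CPM in PNX, and did not pass the threshold (adjusted p = 0.825 by edgeR). At day 14, 0 were called by edgeR or DESeq2, and 2 were higher and 0 lower at an unadjusted p under 0.05, beside 3.19% and 3.63% of all genes, Spp1 (2.14 ± 0.72; adjusted p = 0.532 by edgeR) and Star (2.15 ± 0.90; 0.701).

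Measures of the libraries beside the level of Nr4a1 were as follows, and their part in it was not tested. Sham day 7 replicate 3, the highest library in Nr4a1, had the lowest share of olfactory and vomeronasal counts (89.9 CPM of total counts), the lowest TMM factor of its group (0.826) and no count on Y-linked genes. PNX day 14 replicate 2, the lowest library in Nr4a1, also had a low TMM factor (0.808) and no Y-linked count. Its share of olfactory and vomeronasal counts was low too (124 CPM of total counts). Y-linked counts were also absent from sham day 14 replicate 1 and PNX day 14 replicate 3. Of the day 14 libraries, only sham replicate 2 (3903 Y-linked counts) and PNX replicate 1 (2343) had any. Each was the highest of its group in Nr4a1, with 1427 and 844 CPM. At day 7 the only library without Y-linked counts, sham replicate 3, was instead the highest. The 6 markers of patrolling monocytes, cells that need Nr4a1, of which 5 passed the filter, summed to 114 to 388 CPM in the day 7 sham libraries and 102 to 704 CPM in the PNX ones. The 18 leukocyte markers summed to 199.7 to 1571 CPM in the former and 320 to 929 CPM in the latter. At day 14 they summed to 2117 and 2337 CPM in sham and 1521 to 2009 CPM in PNX. Mesothelial markers, 5 genes, summed to 603 to 3063 CPM in sham at day 7, highest in replicate 3, and to 750.1 to 1847 CPM in PNX.

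Heat shock genes, which answer another kind of stress, mostly stood on the other side of 0 from Nr4a1 at day 7. All 13 were tested: 9 were higher after PNX and 4 lower, 0 were called by edgeR or DESeq2, 2 were higher and 0 lower at an unadjusted p under 0.05 beside 4.66% and 8.07% of all genes, and the median log2 fold change was 0.39 beside 0.03. All PNX libraries lay above sham for 4 of the 13 and below for 0, beside 9.95% and 9.57% of all genes. Hspa8, a constitutive chaperone, was among the 4, at 1566, 1732 and 1834 CPM in sham and at 2709, 2575 and 2092 CPM in PNX. Bag3 had the lower mean after PNX, with overlap, at 61.9, 258 and 287 CPM in sham and at 88.9, 173 and 59.6 CPM in PNX. At day 14, 11 were lower and 2 higher with a median of -0.42 beside -0.07 over all genes. By edgeR and DESeq2 0 were called, and 1 was lower and 0 higher at an unadjusted p under 0.05, beside 3.63% and 3.19% of all genes.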

How the data were processed

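Read counts per gene symbol, 1 column for each of 11 libraries, were used as deposited by the authors. Reads were handled with bcl2fastq 2.20.0.422 and mm10, per the submitters' processing notes; the aligner, counting tool, annotation, strand setting and filters are not given in the sources used here. A micro column kit served for RNA and a low-input kit for libraries, per the labels. No pair of libraries held identical counts.

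The members and lists were chosen with earlier results of these data known. In R 4.3.3, edgeR 4.0.16 fitted 4 group means to all libraries (filterByExpr, TMM, robust quasi-likelihood F test; 7 residual degrees of freedom), with Benjamini-Hochberg adjustment over 16011 genes and a threshold of 0.05. The SE is the absolute log2 fold change divided by the square root of F. On simulated counts, edgeR called 57% of 100 genes changed 4-fold and 92% of 100 changed 8-fold at day 14, with 12 false among 161 calls over both. The changed genes had a mean of at least 5 CPM, and each count was drawn independently. Deviations that genes of a library share, such as background or cell content, were not simulated. Log2 CPM used a prior count of 2; levels per kb used the union of GENCODE M21 exons. Named genes are the members, the 5 genes most like each (mean log2 CPM of at least 1, predicted genes left out), up to 4 members per list and day taken in order of p, and 16 genes with a known role; of these only some are printed. Socs3, Ier3, Dusp2 and Fosl2 were chosen after their values were seen. DESeq2 1.42.0, other scalings and filters, the replicate block and left-out libraries were alternatives. Figures were drawn with matplotlib 3.10.9.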

Additional observations from a re-analysis of the deposited data

How the results depend on the processing

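At day 14 the direction of Nr4a1 and Nr4a2 was kept under DESeq2, RLE factors, total counts, both filters, only the groups compared, the replicate block and without the 3 libraries of highest background. No member passed the threshold at day 14 under any of 19 alternatives, with adjusted p from 0.577 for Nr4a1, from 0.221 for Nr4a2 and from 0.843 for Nr4a3 upwards. The log2 fold change of Nr4a3 at day 14 turned to 0.03 with no filter, 0.01 with the replicate block and 0.51 without the 3 libraries of highest background. Total counts in place of TMM shifted the median over all genes by 0.18 at day 7 and -0.19 at day 14.

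Leaving out each library in turn gave, at day 7, -3.06 to -2.03 for Nr4a1, -0.95 to 0.03 for Nr4a2 and 0.20 to 1.45 for Nr4a3. At day 14 it gave -1.34 to 0.08 for Nr4a1, 0.11 to 1.39 for Nr4a2 and -0.41 to 0.47 for Nr4a3, which was 0.03 without PNX day 14 replicate 3. Between days it gave -3.18 to -1.53, -1.79 to -0.34 and 0.72 to 1.83 within sham, and -0.72 to -0.17, 0.00 to 0.55 and -0.19 to 0.95 within PNX. The number of immediate early genes lower after PNX was 22 to 26 at day 7 and 16 to 29 at day 14. Genes called numbered 3 to 39 higher and 0 to 386 lower at day 7, and 0 to 60 higher and 0 to 14 lower at day 14.

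The counts of genes called, 6 higher and 0 lower at day 7 and 1 and 0 at day 14, changed as follows. DESeq2 called 122 and 312 at day 7 and 63 and 45 at day 14. RLE factors gave 1 lower at each day. Total counts gave 12 higher at day 7, and 2 higher and 1 lower at day 14. With no filter 44 and 134 were called at day 7 and 14 and 13 at day 14. With only the groups compared 1 was lower at day 7, and 20 and 32 were called at day 14. Without the 3 libraries of highest background there were 14 and 8 at day 7 and 8 and 15 at day 14. With the replicate block 0 were higher at day 14. The cause of these changes was not tested. Whether the replicate numbers pair the libraries is not settled here. Deviations from the group mean of libraries with the same number correlated at -0.12, 0.53 and 0.34 at day 7. At day 14 they correlated at 0.10 and 0.18, and 3 of 6 libraries of day 7 correlated best with their own number. In groups of 2 or 3 libraries the deviations depend on each other, so these values cannot decide it. With the block the log2 fold change at day 14 was -0.82 for Nr4a1 and 0.61 for Nr4a2.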
